A study of Mus musculus with 147 samples.

Results

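The germ cell specification factors Prdm1, Prdm14 and Tfap2c, 3 of the 31053 genes in the deposited table of molecule counts, were followed in single cells of the mouse from the early embryo to the juvenile testis. They were taken by name. Prdm1 (ENSMUSG00000038151.13) lies on the minus strand at chr10:44437177-44528501, Prdm14 (ENSMUSG00000042414.7) on the minus strand at chr1:13113457-13127163 and Tfap2c (ENSMUSG00000028640.11) on the plus strand at chr2:172549593-172558622 of GENCODE M21 on the mouse build mm10. The questions were where each gene was detected, how its level moved with time, whether the same cells carried all of them, and whether loss of Helq, a DNA helicase of genome maintenance, moved them.

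Primordial germ cells (PGCs) arise in the posterior epiblast in answer to BMP and WNT signals from neighbouring tissues. Prdm1 (also called Blimp1) encodes a zinc-finger repressor that shuts the somatic programme of the nascent PGCs, Prdm14 encodes its relative that supports the pluripotency network and restrains FGF signalling and new DNA methylation, and Tfap2c encodes AP-2gamma, a DNA-binding activator that acts downstream of Prdm1. Each gene also works elsewhere: Prdm1 in visceral endoderm and in several adult lineages, Tfap2c in trophoblast and in surface ectoderm, and after birth Tfap2c marks part of the spermatogonia.

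Wild-type embryos and pups came from C57BL/6 females crossed with males homozygous for the BVSC reporters, that is Prdm1-mVenus and Dppa3-ECFP (Stella-ECFP) transgenes, and at E10.5 and E11.5 males were picked by PCR for a Y-linked gene. The table of cells gives no sex for 2193 of the cells used, and some cells of E10.5 are labelled without a sex. For embryos before E10.5 the methods describe no choice of males. Cells of E6.5 and E7.5 carry the names EPIrandom and FACSrandom and have no reporter gate, cells of E8.5 to E18.5 were sorted as BVSC or, from E11.5, also as Negative, and cells of postnatal day (PND) 0 to PND14 were picked by shape with no gate. Helq null mice carry the same reporters and a short deletion in exon 1 of both alleles, made with Cas9 in BVSC embryonic stem cells grown up from single sorted cells, from which chimaeras were raised and crossed with each other. They were sampled as BVSC and Negative cells at E11.5 to E15.5 and at E18.5. To E13.5 both reporters set the gate, and from E14.5, per the methods, cells positive for the Dppa3 reporter alone were taken under the same name, so age and gate change together at that step. Prdm1 in BVSC against Negative cells is described, and no test of it is reported. Dppa3 was tested there as part of a gene list, where its call carries no weight since its reporter set the gate. Whether transcripts of the reporter transgene add to the counts of Prdm1 was not tested.

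The sequence of the guide is shown because it defines the null allele. It pairs with chr5:100798315-100798334 of mm10, in the coding part of exon 1 of Helq-201 (bases 265 to 284 of the transcript, sense to it, and Helq itself lies on the minus strand), and is followed by the PAM GGG. The capitals mark the 10 bases nearest to the PAM.
Helq guide: ggagccgccgCCGGAAAACC
CPM stands for the UMIs of a gene scaled to a library total of 1000000. Counting at the 3′ end cannot read a deletion in exon 1. Helq was at 15.1 to 27.7 CPM (median 22.7) in 12 wild-type BVSC pools and at 15.9 to 39.6 CPM (median 23.5) in 9 Helq null pools, so its level does not check the labels.

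Each cell's transcripts were counted by unique molecular identifiers (UMIs), and 10128 of 10384 cells of E6.5 to PND14 passed the filter, with 10289 to 992765 UMIs (median 269280). Cells that shared time-point, genotype, gate and biological replicate were summed into a pool, and the CPM of a gene is its part of all UMIs in that pool. Nothing in the labels says that replicates come from separate litters, so p-values measure the spread between pools. There were 9 pools of 1626 cells at E6.5 and E7.5, 24 wild-type BVSC pools of 2016 cells, 16 wild-type Negative pools of 572 cells, 24 postnatal pools of 4095 cells of a germ cell class (Ddx4, Dazl, Mael and Tdrd1 the highest of 4 marker lists) and 9 Helq null BVSC pools of 766 cells. BVSC pools held 15892008 to 38338265 UMIs and Negative pools 2371707 to 14846785. Some pools stood apart. E8.5 BVSC replicate 1 had 28.4 CPM of early germ cell markers (Dppa3, Nanos3, Kit and Dnd1) and 7218 CPM of visceral endoderm markers, against 1239 and 381 CPM in replicate 2. E10.5 BVSC replicate 3 had 542 CPM of visceral endoderm markers, against 33.4 and 26.7 CPM in replicates 1 and 2. Its endothelium and blood markers (Kdr, Cdh5, Hba-x, Hbb-y and Hbb-bh1) came to 431 CPM, against 0.526 and 5.21 CPM. In E17.5 BVSC replicate 1, 65.3% of the cells fell in the germ cell class, and at E15.5 the Negative cells of Helq null replicate 1 held 332 CPM of Dppa3, and those of replicate 2 116.9 CPM, above the 5.27 and 11.9 CPM of the wild-type Negative pools.

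Before the reporter gate, the levels of the 3 genes differed widely between pools. In the 9 pools of E6.5 and E7.5, Prdm1 ranged from 6.22 to 141.5 CPM (median 36.4), Prdm14 from 0.00684 to 51.2 CPM (median 9.38) and Tfap2c from 17.9 to 232 CPM (median 38.2). E6.5 EPIrandom replicate 1, with 469 cells, gave a single UMI of Prdm14, at 62.7 CPM of Tfap2c. At E7.5, FACSrandom replicate 4 was the highest pool for each gene, at 141.5 CPM of Prdm1, 51.2 CPM of Prdm14 and 232 CPM of Tfap2c. FACSrandom replicate 3 had 125.01 CPM of Prdm1 but 9.38 CPM of Prdm14 and 42.6 CPM of Tfap2c. The labels do not say how these 2 pools were chosen, and after thinning to 50000 UMIs each of their cells held at least 1 of the 3 genes.

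Cells that held Dppa3, the transcript that marks nascent PGCs, were richer in the 3 genes. At E6.5, 19 cells of EPIrandom replicate 2 with at least 100 CPM of Dppa3 held 189 CPM of Prdm1, 118.2 CPM of Prdm14 and 187 CPM of Tfap2c, against 23.2, 9.62 and 28 CPM in the other cells. At E7.5, 16 cells of EPIrandom replicate 1 held 214, 108.3 and 149 CPM of Prdm1, Prdm14 and Tfap2c, against 12.6, 2.61 and 15 CPM in the other 276 cells. Over the 9 pools the median in Dppa3-positive cells was 138.2 CPM of Prdm1, 52.7 CPM of Prdm14 and 149 CPM of Tfap2c, and in the rest 23.2, 5.77 and 19.1 CPM. The medians depended on the limit: with at least 50 CPM of Dppa3 those of the positive cells were 104.98, 51.2 and 49.3 CPM, and with at least 200 CPM 155, 66 and 192 CPM. The pools disagreed. In the 14 Dppa3-positive cells of E6.5 EPIrandom replicate 1, Prdm14 had no UMI, Tfap2c was at 10.9 CPM and Nanos3, an RNA-binding protein of PGCs, at 0.21 CPM. In E7.5 FACSrandom replicate 3, 83 Dppa3-positive cells held 123.2 CPM of Prdm1 and 9.91 CPM of Prdm14, near the 137.4 and 5.77 CPM of the other 12 cells. Those 83 cells held 3228 CPM of visceral endoderm markers and 24.4 CPM of Nanos3. Their endothelium and blood markers (Kdr, Cdh5, Hba-x, Hbb-y and Hbb-bh1) came to 1238 CPM. Visceral endoderm markers were at 1784 CPM in the 14 cells of E6.5. In E7.5 FACSrandom replicate 4, 45 Dppa3-positive cells held 2072 CPM of them and 152.5 CPM of Nanos3. Which of these cells were PGCs was not tested.

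In sums over pools, which genes a cell carried went with its other markers, but single pools differed. For this a gene counted as carried at 3 or more of 50000 UMIs. All 3 genes were carried by 16 cells at E6.5, 49 at E7.5 and 51 at E8.5, whose pooled Dppa3 was 206, 537 and 659 CPM. Their visceral endoderm markers (Ttr, Apoa1, Apoa4, Afp, Amn, Cubn and Rbp4, summed) stood at 128.6, 748 and 322 CPM. Prdm1 without the other genes was carried by 53 cells at E6.5, 14 at E8.5 and more than either at E7.5. In these cells of E6.5, E7.5 and E8.5 the visceral endoderm markers came to 2718, 2405 and 7833 CPM and Dppa3 to 23.5, 96.7 and 35.4 CPM. The pools differed here. In E6.5 EPIrandom replicate 2 the visceral endoderm markers were at 19.4 CPM in the 8 cells with Prdm1 alone. That was below the 60.5 CPM of the cells with all 3 genes and the 239.7 CPM of those with none. E6.5 EPIrandom replicate 1 had 4676 CPM and FACSrandom replicate 3 1834 CPM with Prdm1 alone. At E7.5 the cells with Prdm1 alone held less than those with none in FACSrandom replicates 1, 3 and 4. The values were 2160 against 2936, 2980 against 3694 and 4209 against 4488 CPM. EPIrandom replicate 2 was level (228 against 233 CPM). Prdm1 alone went with more in EPIrandom replicate 1 (1862 against 733 CPM) and FACSrandom replicate 2 (1564 against 96.9 CPM). At E8.5 such cells came from replicates 1 (7648 against 7065 CPM) and 3 (8313 against 6275 CPM). Tfap2c without the other genes was carried by 97 cells at E6.5, with 193 CPM of Elf5, a trophoblast regulator that was at 0.203 CPM in the cells with all 3 genes. Of the 97 cells, 79 came from EPIrandom replicate 1, with 234 CPM of Elf5, 13 from EPIrandom replicate 2, with 25.4 CPM, and 5 from FACSrandom replicate 3, with no UMI of it. No cell of EPIrandom replicate 1 carried all 3 genes. At E7.5, 54 cells carried Tfap2c without the others, and Elf5 was at 0.339 CPM there. Prdm14 without the others was carried by 2 cells at E6.5, 9 at E7.5 and none at E8.5, and Prdm14 with Tfap2c but not Prdm1 by 9 cells at E8.5, with 793 CPM of Dppa3. These are sums over cells and not replicates, and no test was made between the kinds of cells.

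**Figure D1:**
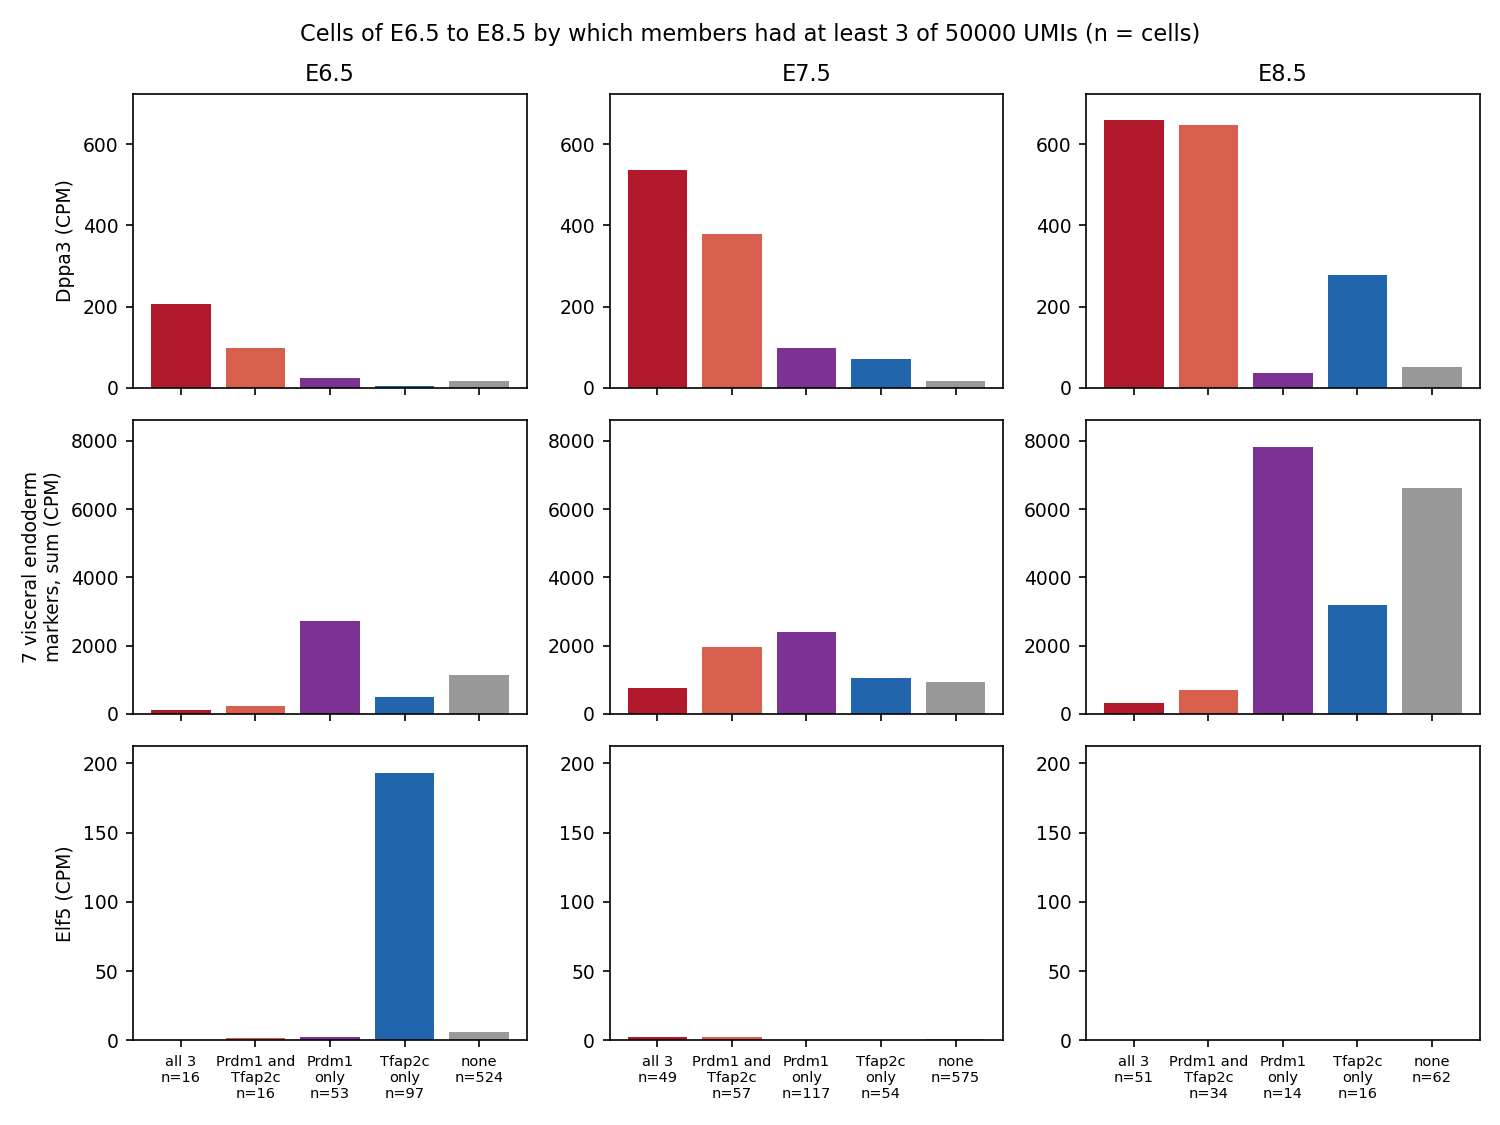
Bars give CPM summed over the cells of E6.5, E7.5 and E8.5 (columns) that carried the named members at 3 or more of 50000 UMIs, with the number of cells under each bar: Dppa3 in the top row, the sum of 7 visceral endoderm markers in the middle and Elf5 at the bottom. Among the kinds plotted, Dppa3 is highest with all 3 genes (206, 537 and 659 CPM), visceral endoderm markers with Prdm1 alone (2718, 2405 and 7833 CPM) and Elf5 with Tfap2c alone at E6.5 (193 CPM), all as sums over pools. Within E8.5 replicates 2 and 3, Dppa3 was lower with all 3 genes (680 and 456 CPM) than with Prdm1 and Tfap2c only (699 and 517 CPM). So it was in E7.5 FACSrandom replicate 4 (616 against 657 CPM), and the other pools with both kinds went the other way. In E6.5 EPIrandom replicate 2 the visceral endoderm markers were lower with Prdm1 alone (19.4 CPM) than with all 3 genes (60.5 CPM), and most of the Elf5 came from EPIrandom replicate 1. At E7.5 the visceral endoderm markers were lower with Prdm1 alone than with none in FACSrandom replicates 1, 3 and 4. At E8.5 the cells with Prdm1 alone came from replicates 1 and 3.

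In wild-type BVSC pools the mean CPM of all 3 genes was highest at E9.5, and the genes then ran down at different paces. For Prdm1, E8.5 replicate 2 (143.8 CPM) lay between the E9.5 pools (150.6 and 109.03 CPM). In sums over cells, fewer cells with a gene and less RNA per cell cannot be told apart, so shares of cells are given as well. At E8.5, Tfap2c was at 0.0436, 306 and 112.2 CPM in the 3 pools, Prdm14 at 0.174, 79 and 16.2 CPM, and Prdm1 at 35.5, 143.8 and 55.1 CPM. The spread at this time-point followed the pools' visceral endoderm markers, at 7218, 381 and 4816 CPM, and the part of these cells in the levels was not tested. Without replicate 1, the whole E8.5 pools still did not reach the E9.5 pools for Prdm14 and Tfap2c. In replicate 2, the 89 cells with at least 200 CPM of Dppa3 held 150.3 CPM of Prdm1, 82.5 CPM of Prdm14 and 320 CPM of Tfap2c. Each of these values lay between the E9.5 pools, whose cells were not selected in this way. In replicate 3 the 16 such cells held 117.8, 47 and 291 CPM, with Prdm14 and Tfap2c below the E9.5 pools. At E10.5 the lowest pool for each gene was replicate 3. The part of its visceral endoderm, endothelium and blood markers in these values was not tested.

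Tfap2c had the highest CPM of its course at E9.5 and was lower at each time-point to E16.5. It was at 326 and 319.5 CPM at E9.5, at 296, 275 and 227 CPM at E10.5, and at 166 and 204 CPM at E11.5. It stood at 121.1 and 115.1 CPM at E12.5, then at 33.4 and 97 CPM at E13.5, where its pools lay far apart. From there it was at 29.6 and 28.3 CPM at E14.5 and at 17.4 and 17.1 CPM at E15.5. From E9.5 to E14.5 the pools of each time-point lay below those of the one before, without overlap. From E16.5 to E18.5 it moved between 10.8 and 16.7 CPM.

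Prdm14 stayed within a narrower range to E12.5 and was lowest at E18.5. It was at 94.4 and 81.4 CPM at E9.5, at 86.9, 61.6 and 59.8 CPM at E10.5, at 47.2 and 63.5 CPM at E11.5 and at 51.8 and 65.2 CPM at E12.5. These 4 time-points overlapped in the order of their means. It then stood at 32.5 and 41.2 CPM at E13.5, at 28.8 and 29.5 CPM at E14.5, and at 3.64 and 12.8 CPM at E15.5. The pools of E14.5 and E15.5 did not overlap. At E16.5 it was at 4.35 and 4.73 CPM, at E17.5 at 6.08 and 12 CPM and at E18.5 at 3.64 and 1.56 CPM.

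Prdm1 moved less and was higher again at the end of gestation. It was at 150.6 and 109.03 CPM at E9.5, at 93.4, 89.4 and 81.2 CPM at E10.5, at 106.7 and 105.9 CPM at E11.5, at 56.1 and 82.2 CPM at E12.5 and at 98.9 and 63.7 CPM at E13.5. E10.5, E12.5 and E13.5 overlapped. It stood at 53.1 and 58.9 CPM at E14.5, which overlapped E12.5, at 35.2 and 30.3 CPM at E15.5, and at 29.2 and 14 CPM at E16.5. At E17.5 it was at 23.6 and 34 CPM, and at E18.5 at 55.1 and 59.6 CPM, above each pool of E15.5 to E17.5.

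**Figure D2:**
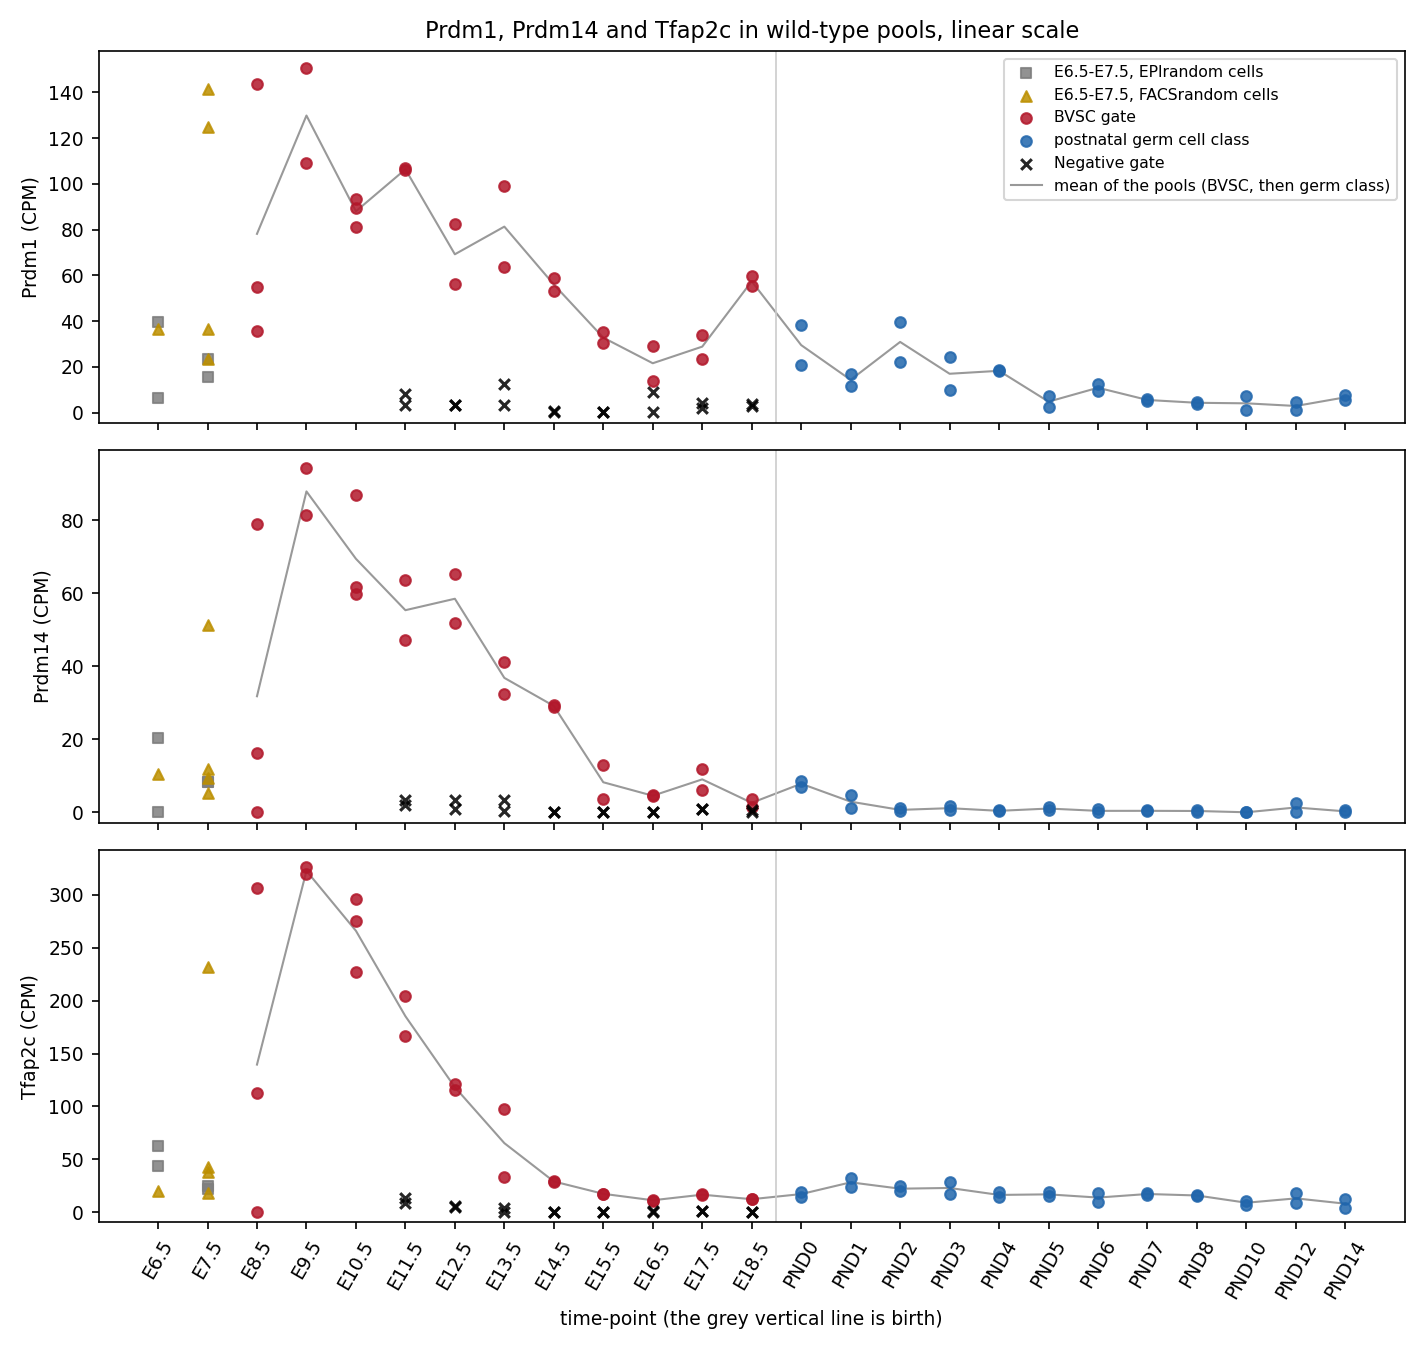
CPM (linear axis) of Prdm1, Prdm14 and Tfap2c by time-point from E6.5 to PND14, each symbol a wild-type pool: EPIrandom and FACSrandom cells, the BVSC and Negative gates, and the postnatal germ cell class. The grey line joins the means of BVSC and germ cell class pools and peaks at E9.5 for each gene, at 129.8, 87.9 and 323 CPM.

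Each time-point was tested against the one before it over all genes, with edgeR's quasi-likelihood test in a single fit of 48 pools, and all 3 genes passed the filter on low counts in each fit. None of the 66 tests of the 3 genes over 22 steps passed the adjusted threshold of 0.05, where 0.99% of all tests of genes did. At an unadjusted p under 0.05 there were 4, and DESeq2 called 1, the step of Prdm14 from PND10 to PND12. A pair of contrasts over a longer span, chosen after the values were seen, were read from the same fit. From E9.5 to E18.5, Tfap2c fell by 5.46 ± 1.11 on the log2 scale (SE, adjusted p = 0.000182), Prdm14 fell by 5.82 ± 1.49 (adjusted p = 0.00207) and Prdm1 fell by 1.90 ± 0.61 (adjusted p = 0.0112). In this contrast 19.5% of genes were called lower and 26.2% higher, and the median gene stood at +1.03. The methods describe no choice of males at E9.5, and the part of sex in this contrast was not tested. With DESeq2 size factors the median gene stood at +1.59, and Prdm1 was not called (fell by 1.34, adjusted p = 0.064). In CPM, Prdm1 was at 129.8 ± 29.4 (SD, n = 2) at E9.5, 2.26 times its level at E18.5, Prdm14 was at 87.9 ± 9.19, or 33.8 times, and Tfap2c at 323 ± 4.64, or 26.6 times. Without the pools numbered 2, which leaves 1 pool at most time-points, none of the 3 falls was called (adjusted p = 0.123 for Prdm1, 0.17 for Prdm14 and 0.234 for Tfap2c), and without those numbered 1 the fall of Prdm1 was not (adjusted p = 0.218).

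The other genes of the pathway, in lists chosen with earlier results of these data known, went several ways over the same span. The early germ cell genes fell together, 12 of 12 called lower and none higher, with a median of -4.32, and 11 were called lower with size factors. Among them Ifitm3, an interferon-induced membrane protein on early PGCs, had the steepest fall (-7.89, adjusted p = 7.44e-05), and Dnd1, an RNA-binding protein that guards PGCs, the shallowest (-1.86, adjusted p = 0.0241). Of 9 upstream signals, 4 were called higher (Bmp8b, Eomes, T and Wnt3) and 2 lower (Id1 and Smad5), with a median of 2.06. Bmp8b, a BMP ligand, rose by 10.98 (adjusted p = 8.17e-05) and Id1, a direct target of BMP signalling, fell by 2.83 (adjusted p = 5.51e-06). Of 9 genes known to be repressed downstream, Dusp6, Fgfr2, Spry4 and Fgfr1 of FGF signalling were called lower and Dnmt3a higher, with a median of -0.95. Dusp6, a phosphatase induced by ERK signalling, fell by 5.15 (adjusted p = 5.6e-07), and Dnmt3a, a de novo DNA methyltransferase, rose by 2.00 (adjusted p = 2.2e-07).

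Partner proteins and relatives were counted in the same way. Of 6 partners, 5 were called lower (median -1.75), among them Cbfa2t2, which binds Prdm14, and Prmt5, the arginine methyltransferase that acts with Prdm1. Wdr77, the partner of Prmt5, had the largest fall (-2.34, adjusted p = 9.17e-10), and Eed, a Polycomb subunit, was at 0.26 (adjusted p = 0.167). With size factors 4 partners were lower and 1 higher. Of 17 paralogs, 4 were called higher (Prdm9, Prdm11, Prdm12 and Prdm16) and 3 lower, with a median of 2.44, where 26.2% of all genes were called higher and 19.5% lower. Prdm13 had the largest value (8.995, adjusted p = 0.0878). Of 9 genes of the somatic mesoderm programme, Hoxb2 was called higher (2.90, adjusted p = 0.0446) and Evx1 lower (-5.07, adjusted p = 0.0395), the latter not with size factors.

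After birth the 3 genes parted. Prdm1 was at 38.2 and 20.8 CPM at PND0 and ranged from 9.76 to 39.7 CPM (median 19.6) over the 10 pools of PND0 to PND4. At PND4 it stood at 18.48 and 18.04 CPM and at PND5 at 7.07 and 2.5 CPM, without overlap, and that step had an unadjusted p of 0.00399 but an adjusted p of 1. Over the 14 pools of PND5 to PND14 it ranged from 1.04 to 12.3 CPM, with a median of 5.24. Prdm14 was at 7.03 and 8.64 CPM at PND0 and at 1.19 and 4.64 CPM at PND1. In the 20 pools from PND2 on it ranged from 0 to 2.54 CPM with a median of 0.519, and the top value was PND12 replicate 1. Tfap2c stayed on, between 3.62 and 32 CPM in the 24 pools (median 16.9). Its highest pools were PND1 replicate 1 at 32 CPM and PND3 replicate 2 at 28.4 CPM, and its lowest was PND14 replicate 2.

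From PND0 to PND14, Prdm14 fell by 4.39 ± 1.42 on the log2 scale (adjusted p = 0.0203), Prdm1 had a value of -1.55 ± 0.60 (adjusted p = 0.0525) and Tfap2c of -0.58 ± 0.93 (adjusted p = 0.668). Prdm1 was called with DESeq2 size factors (-2.02, adjusted p = 0.0163), without E8.5 replicate 1 (-1.55, adjusted p = 0.037) and by DESeq2 (-2.02, adjusted p = 0.00378). Without the pools numbered 2, Prdm14 was not called (-3.54), and without those numbered 1 its value was -11.03. Each of these fits leaves 1 pool at PND0 and at PND14. The value of -11.03 is set against a PND14 pool without a UMI of Prdm14, so its size cannot be read as a fold. Here 10.4% of genes were called lower and 16.6% higher, and the median gene stood at -0.25, or at -0.73 with size factors. In the 17 pools of the somatic class of the same testes Prdm1 reached at most 9.78 CPM and Tfap2c 4.1 CPM. Prdm14 had no UMI in 12 of these pools, and its highest value, 0.711 CPM, came from 1 UMI in 13 cells. The cells differ in kind over this span, since spermatogonia and meiotic cells join, and their shares were not separated here.

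Over the same span the lists moved less together. Of 12 early germ cell genes 2 were called higher (Kit and Nanos3) and 2 lower (Pou5f1 and Alpl), with a median of -0.53, and with size factors 3 were lower and none higher. Nanos3 had the largest rise (2.45, adjusted p = 0.0323) and Sox2, a pluripotency factor, the lowest value (-2.88, adjusted p = 0.0821). Of the 6 partners 5 were called higher (median 1.08), led by Wdr77 (1.78, adjusted p = 3.75e-07), and with size factors 2 were higher and 1 lower. Eed had the lowest value (-0.09, adjusted p = 0.685). Of 9 upstream signals Smad1 and Smad5 were called higher and T, Bmp4, Bmp2 and Wnt3 lower, from 2.67 for Smad5 to -4.71 for T (adjusted p = 9.17e-06 and 0.000956, median -2.43). Of the genes known to be repressed downstream, Uhrf1 (2.71, adjusted p = 0.00112) and Ehmt1 were called higher and Myc (-3.26, adjusted p = 0.0291) and Dnmt3a lower, with a median of -1.12. Hand1 was the 1 gene of the mesoderm programme called (-7.81, adjusted p = 0.0278), at a list median of -1.66 and a top value of 1.17 for Snai1 (adjusted p = 0.252). Of the paralogs Prdm4 and Prdm15 were called higher and Mecom lower, with a median of 0.10, the largest value for Prdm9 (2.53, adjusted p = 0.0862) and the lowest for Prdm13 (-4.66, adjusted p = 0.276).

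The order of the time-points by mean CPM of germ cell pools shows how far neighbours can be told apart. For Tfap2c 7 of the 22 neighbouring pairs in that order did not overlap, among them E9.5 above E10.5 and E13.5 above E14.5. For Prdm14 3 pairs did not overlap, namely E11.5 above E13.5, E14.5 above E17.5, and PND0 above E16.5. For Prdm1 4 pairs did not, namely E9.5 above E11.5, E11.5 above E10.5, E14.5 above E15.5, and PND6 above PND14. The lowest means were 2.89 CPM for Prdm1 at PND12, 0.00981 CPM for Prdm14 at PND10 and 7.9 CPM for Tfap2c at PND14.

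Over the 24 wild-type BVSC pools, the levels of Prdm14 and Tfap2c ran closest to each other, with a Pearson r of 0.93 on log2(CPM + 1), against 0.75 for Prdm1 and Prdm14 and 0.77 for Prdm1 and Tfap2c. These are descriptions over pools that share a time axis. Of 10157 genes of at least 10 CPM on average over these pools, those most like Prdm1 were Sp3os (0.90), Ap4s1 (0.90), Spred2 (0.90), Syce2 (0.89) and Peg12 (0.88). Among those most like Prdm14 were Esrrb (0.96), Mup6 (0.95), Sox15 (0.95) and Gm11747 (0.94). Among those most like Tfap2c were Pdgfa (0.97), Sox15 (0.96), Gng3 (0.96) and Phf19 (0.94). Without E8.5 replicate 1, which held almost no Prdm14 and Tfap2c, the leading genes were Spred2 for Prdm1 (0.90), Mybl2 for Prdm14 (0.96) and Slc25a13 for Tfap2c (0.98).

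Cells with all 3 transcripts made up most of the BVSC cells at E9.5 to E12.5 and fewer later, and how few depended on depth. After thinning each cell to 50000 UMIs, all 3 had at least 1 UMI in 87.1% (95% exact binomial interval 78.5 to 93.2) and 78.3% (68.4 to 86.2) of the cells of the E9.5 pools. The share was 80.7%, 73.1% and 67% at E10.5, 70.5% and 74.3% at E11.5 and 63.1% and 72.5% at E12.5. It was 34.1% and 61.6% at E13.5, 24.7% and 21.5% at E14.5, 2.2% and 6.67% at E15.5 and 2.22% in both pools of E16.5. Without thinning, the E15.5 pools were at 3.23% and 42.6%, far apart. Intervals cover counting error of cells only. In Negative cells of E11.5 to E13.5 it was 0% to 5.26%, at 1 cell at most in a pool, and from E14.5 on it was 0% in each wild-type Negative pool of 17 to 46 cells. At E8.5 the share was 0% in replicate 1, 82.4% in replicate 2 and 31.2% in replicate 3.

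Prdm14 was found in the fewest cells at E9.5 and E18.5, and Tfap2c at E14.5. The lowest shares lay close in a pool of E9.5 (88% against 90.2%) and in a pool of E14.5 (47.3% against 49.5%). These orders were not tested. At E9.5 Tfap2c was found in 100% of cells in both pools, Prdm1 in 97.8% and 90.2%, and Prdm14 in 89.2% and 88%. At E14.5 Tfap2c was found in 47.3% in both pools, Prdm14 in 59.1% and 49.5%, and Prdm1 in 65.6% and 71%. At E18.5 Prdm1 was found in 71.4% and 66.7%, Tfap2c in 27.1% and 23.2%, and Prdm14 in 11.4% and 4.35%. Negative cells of E14.5, with median depths of 212870 and 169088 UMIs before thinning against 333211 and 324184 in BVSC cells, held Prdm1 in 2.27% in both pools, Prdm14 in none and Tfap2c in 0% and 2.27%. Without thinning, all 3 genes were found in 96.9% and 93.6% of BVSC cells at E9.5 and in 52.1% and 56.2% at E14.5.

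From E9.5 on, the share of cells with all 3 genes lay near the product of the 3 single shares or a few points above it. At E9.5 the products were 87.3% and 79.4%, at E12.5 63.2% and 72.9%, and at E14.5 18.4% and 16.6%. At E6.5 and E7.5 it lay above the product, with 18% against 7.47% in E6.5 EPIrandom replicate 2 and 6.05% against 0.993% in E7.5 EPIrandom replicate 1. E7.5 FACSrandom replicates 3 and 4 were nearer, at 31.2% against 28.2% and 70.2% against 70.1%. The pools of E6.5 and E7.5 mix cells of several tissues.

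**Figure D3:**
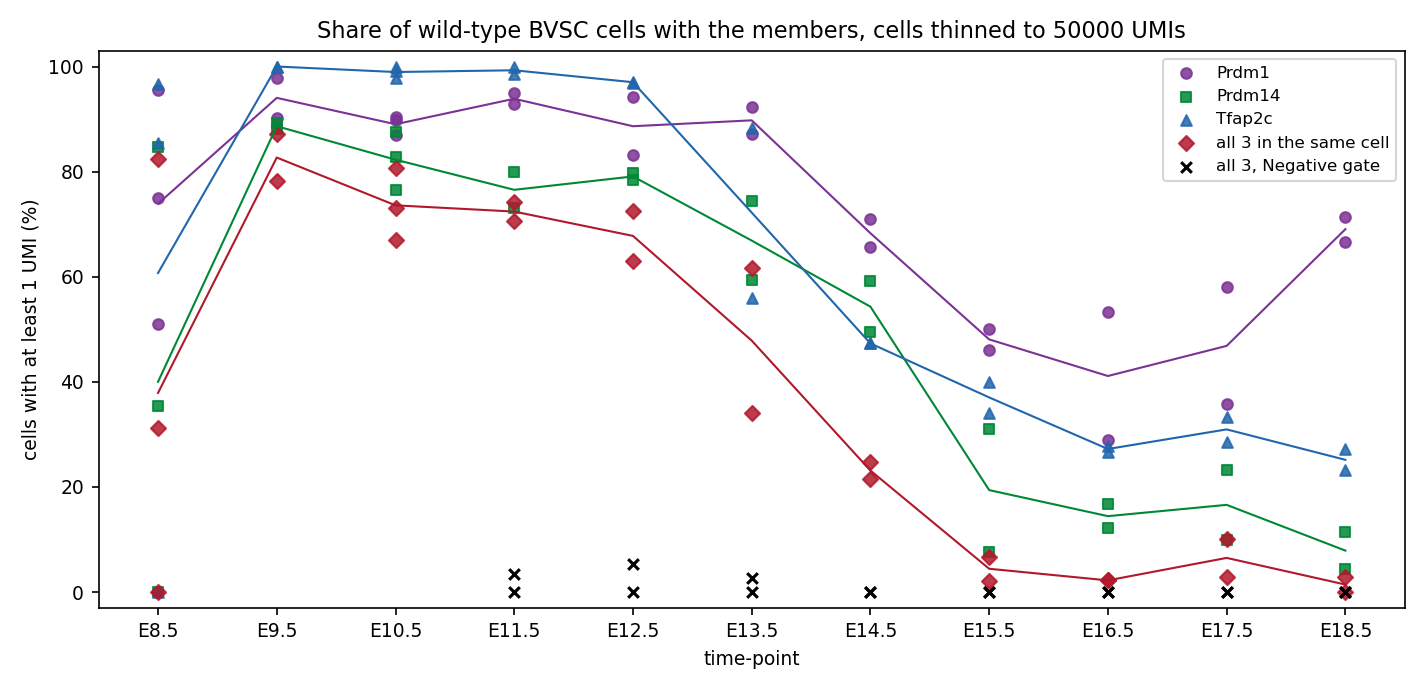
Share of wild-type BVSC cells with at least 1 UMI of Prdm1, Prdm14, Tfap2c or all 3 by time-point, E8.5 to E18.5, after thinning to 50000 UMIs. Points are pools, lines join the means, and crosses give all 3 genes in Negative cells, which stay at or under 5.26%.

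Sorted BVSC cells were compared with Negative cells of the same gonads, which are somatic for the most part. In the 16 wild-type Negative pools Prdm14 ranged from 0 to 3.47 CPM (median 0.543), Tfap2c from 0 to 13.6 CPM (median 0.527) and Prdm1 from 0.112 to 12.4 CPM (median 3.32). With time-point as covariate, Prdm14 was higher in BVSC cells by 5.001 ± 0.55 on the log2 scale (adjusted p = 7.7e-09) and Tfap2c by 4.93 ± 0.38 (adjusted p = 9.82e-12), each in 16 of 16 pairs of pools. In this comparison 36.4% of genes were called higher and 23.7% lower, and the median gene stood at 0.38, or at 0.51 with size factors. At single time-points Tfap2c was called higher at all 8 and Prdm14 at 7, with 8.63% of tests of all genes called higher, and at E18.5 Prdm14 was not called (2.17 ± 1.21, adjusted p = 0.193).

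The distance between the gates varied with time, and at E14.5 to E16.5 and E18.5 it rested for Prdm14 on 2 or fewer UMIs in Negative cells. Over the pools of a time-point, Prdm14 was 22.7 times as high in BVSC cells at E11.5, 25.2 times at E12.5 and 28.5 times at E13.5. At E14.5 no UMI of it was counted in Negative cells, so it was at least 175 times as high, taking 3 UMIs over both pools as the floor. At E15.5 the ratio was 153 (95% exact interval 27.2 to 6039, from 1 UMI), an interval that holds the ratio of E13.5, and at E16.5 it was at least 24.5. At E18.5 the ratio was 6.84 (95% exact interval 1.86 to 57), from 2 UMIs in Negative cells. Tfap2c was 17.52 times as high at E11.5, 45.1 times at E13.5 and 174 times at E14.5 (59.3 to 843, from 3 UMIs), and 114.8 times at E15.5 (39.2 to 557, from 3 UMIs), where the interval again holds the ratio of E13.5. At E18.5 it was at least 21.8 times as high.

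The low values in Negative cells differed between sets of cells, and Dppa3 is given beside them. Negative cells of E11.5 to E13.5 that shared a library with BVSC cells held 131.1 to 287 CPM of Dppa3 and 3.98 to 13.9 CPM of Tfap2c, over 5 wild-type sets of cells. The E13.5 Negative cells of replicate 2, from libraries without BVSC cells, held 72 CPM of Dppa3 and 0.269 CPM of Tfap2c, and the part of shared libraries in these values was not tested. At E11.5 the 16 Negative cells of replicate 1 from a library without BVSC cells held 91.2 CPM of Dppa3 and 6.01 CPM of Tfap2c. At E17.5 and E18.5, when Dppa3 in BVSC cells was at 60.1 to 80.5 CPM, Negative cells in shared libraries held 2.44 to 4.68 CPM of it. By the germ cell markers Ddx4, Dazl, Mael and Tdrd1, 6.38% of the cells of E13.5 Negative replicate 1 and none of E12.5 fell in the germ cell class.

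**Figure D4:**
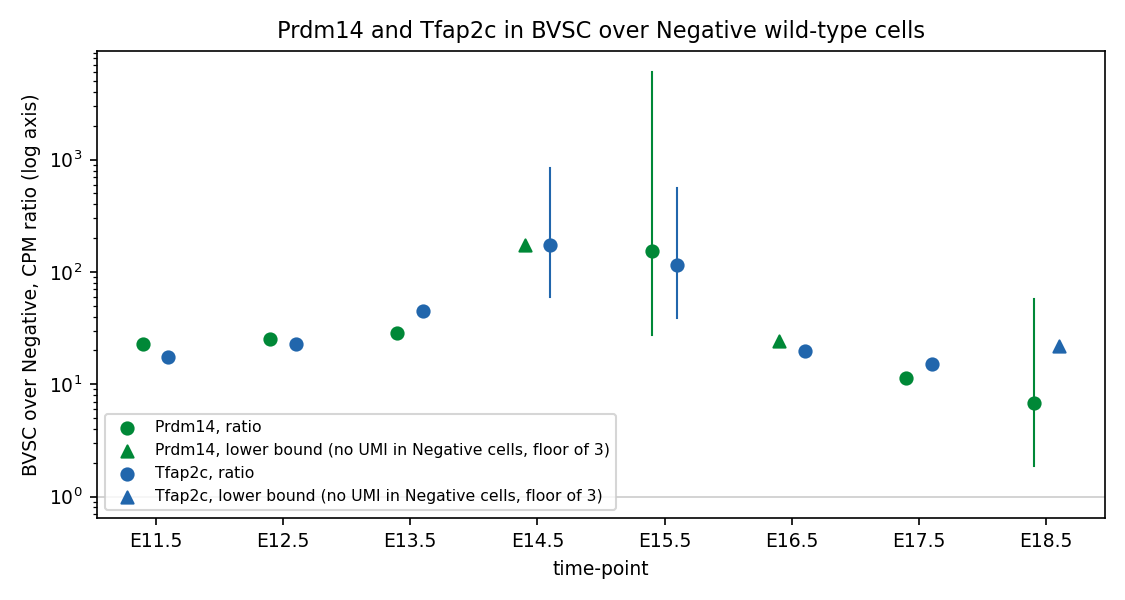
Ratio of CPM in wild-type BVSC over Negative cells (log axis) for Prdm14 and Tfap2c at E11.5 to E18.5. Circles are ratios, with 95% exact intervals where 3 or fewer UMIs were counted in Negative cells, and triangles are lower bounds where none was, such as 175 for Prdm14 at E14.5.

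The lists were counted between the gates against the 36.4% of all genes called higher and the 23.7% called lower. Of 12 early germ cell genes 9 were called higher in BVSC cells and none lower (median 3.63), from 5.48 for Sox2 (adjusted p = 7.35e-10) to -1.05 for Klf2 (adjusted p = 0.0642). Dppa3 is among the 9, and its reporter set the gate. Of the genes known to be repressed downstream, 7 of 9 were called lower and none higher (median -1.28), with Myc at -3.64 (adjusted p = 5.65e-09) and Dnmt3a at -0.08 (adjusted p = 0.777). Of the 9 mesoderm genes 5 were called higher (Tbx6, Hoxb1, Mesp1, Fgf8 and Evx1) and Snai1 lower, with a median of 2.88, from 5.34 for Evx1 (adjusted p = 2.34e-06) to -2.15 for Snai1 (adjusted p = 0.000706). Of 9 upstream signals Eomes, T and Wnt3 were called higher and Id1, Bmp2, Smad5 and Smad1 lower (median 0.00), from 4.79 for Wnt3 (adjusted p = 1.65e-08) to -3.89 for Id1 (adjusted p = 8.6e-13). Of 6 partners Wdr77, Prmt5 and Eed were called higher and Ezh2 lower (median 0.46), from 1.56 for Eed (adjusted p = 5.99e-11) to -0.61 for Ezh2 (adjusted p = 0.00866). Of 15 paralogs tested 6 were called higher and 1 lower (median 0.86), from 4.49 for Tfap2e (adjusted p = 0.000318) to -2.44 for Prdm11 (adjusted p = 0.000674).

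Helq null BVSC cells kept the 3 genes, and no difference from wild type passed the test over all time-points. Fitted with time-point as covariate over 21 pools, Prdm1 had a value of 0.43 ± 0.18 on the log2 scale (adjusted p = 0.389), Prdm14 of 0.35 ± 0.30 (adjusted p = 0.742) and Tfap2c of 0.32 ± 0.21 (adjusted p = 0.644). Of all genes 0.714% were called, 61 higher and 93 lower, with 2250 at an unadjusted p under 0.05 and 531 called by DESeq2. In the 1 time-point with a library that holds both genotypes, E13.5, the values were -0.01, -0.18 and -0.22 (adjusted p = 0.999 each). Within that library the wild-type cells held 99.4 CPM of Prdm1, 38.7 CPM of Prdm14 and 31.9 CPM of Tfap2c and the Helq null cells 98.5, 38.2 and 71.6 CPM. These wild-type cells were of the proximal part of the gonad and the Helq null cells of the distal part, so that genotype and part cannot be told apart within the library. Elsewhere library and genotype cannot be told apart.

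At E13.5 the genotypes overlapped, and at E11.5 and E12.5 there was 1 Helq null pool each. At E11.5 the 1 Helq null pool held 114.3 CPM of Prdm1, 62.7 CPM of Prdm14 and 211 CPM of Tfap2c, where wild-type pools held 105.9 and 106.7, 47.2 and 63.5, and 166 and 204 CPM. At E12.5 it held 87.1, 31.6 and 82.7 CPM, so Prdm14 and Tfap2c lay under both wild-type pools and Prdm1 above both. At E13.5 the pools held 94.3 and 77.8 CPM of Prdm1, 43.1 and 27.6 CPM of Prdm14, and 82 and 42 CPM of Tfap2c, within or around the wild-type values.

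At E14.5 and E15.5 Helq null pools stood higher. The paper reports a larger share of PGCs in transition from division to mitotic arrest in Helq null than in wild type at E15.5. Stages were not separated here, so stage and genotype cannot be told apart. At E14.5 Prdm1 was at 136.03 and 73.1 CPM against 53.1 and 58.9 CPM in wild type, and Tfap2c at 58.4 and 58.7 CPM against 29.6 and 28.3 CPM. Prdm14 overlapped at E14.5, at 40.1 and 13.9 CPM against 28.8 and 29.5 CPM. At E15.5 Prdm1 was at 92.3 and 54.6 CPM against 35.2 and 30.3 CPM, Prdm14 at 31.7 and 24.1 CPM against 3.64 and 12.8 CPM, and Tfap2c at 33.9 and 34.3 CPM against 17.4 and 17.1 CPM. At E18.5 the 1 Helq null pool held 42.6 CPM of Prdm1, 6.04 CPM of Prdm14 and 11.1 CPM of Tfap2c, below the wild-type pools for Prdm1 and Tfap2c and above them for Prdm14. All 3 genes were apart in the pools of E15.5, as were 32.7% of genes of at least 10 CPM, higher in both null pools, and 16.4% of genes at E14.5. Pools that stood apart in this way were thus common among genes at E15.5.

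None of these differences passed the test. At E15.5 the values were 1.26 ± 0.31 for Prdm1 (adjusted p = 0.0535), 1.80 ± 0.51 for Prdm14 (adjusted p = 0.0947) and 1.06 ± 0.37 for Tfap2c (adjusted p = 0.191), where 0.629% of genes were called higher. At E14.5 they were 0.85 ± 0.31 for Prdm1 (adjusted p = 0.531), -0.17 ± 0.49 for Prdm14 (adjusted p = 1) and 0.99 ± 0.37 for Tfap2c (adjusted p = 0.538). Over the 6 time-points 0.134% of all tests were called higher. DESeq2 called Prdm1 at E15.5 (1.14, adjusted p = 0.00937) and neither of the others (adjusted p = 0.0562 for Prdm14 and 0.174 for Tfap2c). Single pools decided the call: for Prdm1 the adjusted p was 0.04 without E15.5 null replicate 2 (1.63) and 0.756 without E15.5 null replicate 1 (0.75), and for Prdm14 it was 0.0127 without E15.5 wild-type replicate 2 (3.13). Leaving out a null pool of E14.5 also brought both genes under the threshold at E15.5, with adjusted p of 0.0126 and 0.0172 for Prdm1 and 0.0283 and 0.0362 for Prdm14, as did leaving out a null pool of E13.5 for Prdm1 (0.0416 and 0.0493). The effect of genotype by time-point had unadjusted p of 0.0141 for Prdm1, 0.0262 for Prdm14 and 0.0378 for Tfap2c, and adjusted p of 0.519, 0.603 and 0.656, and 0.0524% of genes passed.

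**Figure D5:**
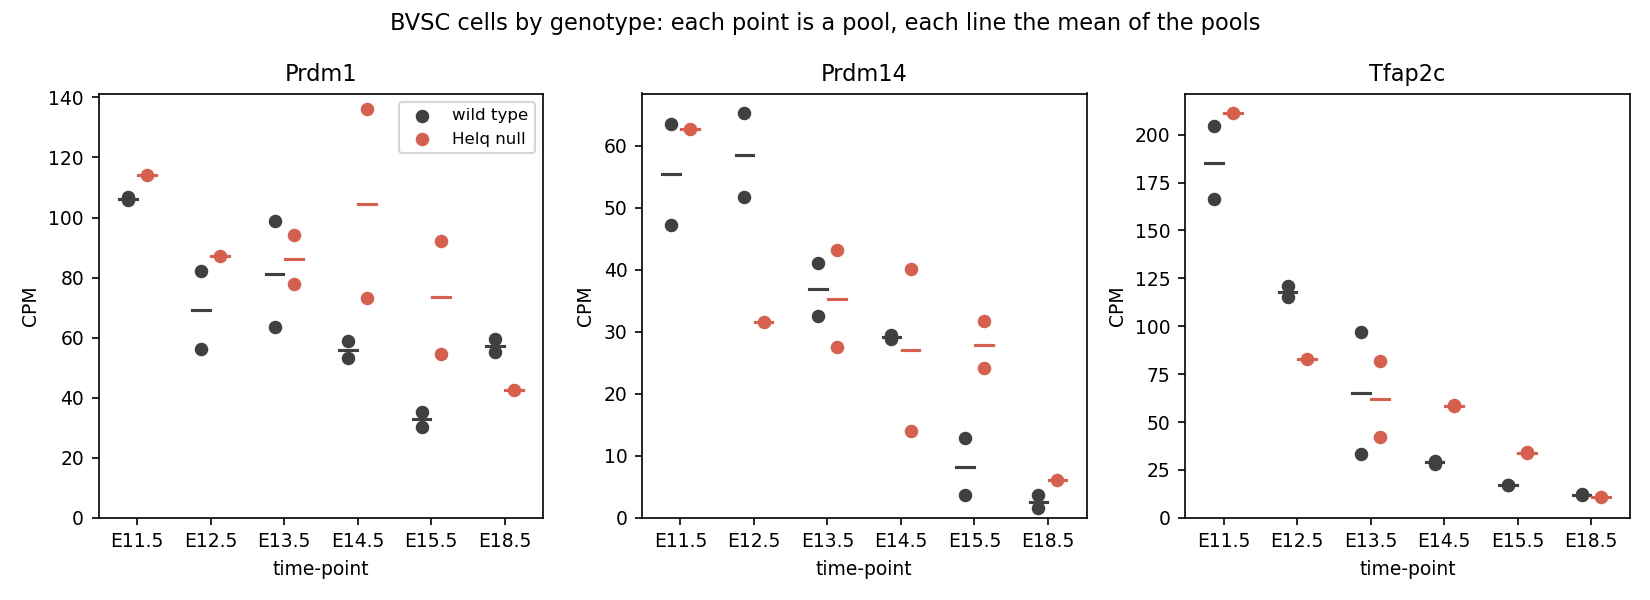
CPM of Prdm1, Prdm14 and Tfap2c in wild-type and Helq null BVSC cells at the 6 time-points with both genotypes, on linear axes. Each point is a pool and each line the mean of the pools of a genotype, and at E15.5 the Helq null pools lie above the wild-type pools for each gene.

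Shares of cells with all 3 genes were compared as well. All 3 genes were found, after thinning, in 48.4% and 20.9% of Helq null cells at E14.5 against 24.7% and 21.5% of wild-type cells. At E15.5 it was 27.7% and 23.9% against 2.2% and 6.67%, or 66.3% and 56.5% against 3.23% and 42.6% without thinning, and at E18.5 1.47% against 2.86% and 0%. Negative cells of Helq null replicate 1 at E15.5 held 28 CPM of Prdm1, 7.68 CPM of Prdm14 and 332 CPM of Dppa3, with 9.52% of cells in the germ cell class. Those of replicate 2 held 3.04 CPM each of Prdm1 and Prdm14 and 116.9 CPM of Dppa3, where the wild-type Negative pools held at most 0.273 CPM of Prdm1 and 0.0909 CPM of Prdm14. The part of this in the BVSC values was not tested. In the BVSC pools of E15.5, Sertoli cell markers (Sox9, Wt1, Cldn11 and Amhr2, summed) came to 18.2 and 6.91 CPM in wild type and to 7.93 and 16.48 CPM in Helq null, with overlap.

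At E13.5 to E15.5 the gonads had been cut into proximal, central and distal parts. At E15.5 Prdm1 was at 24.4 to 49.3 CPM in the 6 wild-type sets and at 40.9 to 105.1 CPM in the 6 Helq null sets. Prdm14 was at 1.69 to 17.9 CPM and at 20.6 to 36.6 CPM, and Tfap2c at 9.29 to 22.9 CPM and at 23.8 to 41.1 CPM. The ranges of Prdm14 and Tfap2c did not overlap, and those of Prdm1 did. The parts of a replicate are not separate samples, so no test was made.

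Of the pathway lists no gene was called in the fit over all time-points by edgeR, and at single time-points 4 calls fell on the fixed lists, named after their values were seen. The lists held 9, 12, 9, 9, 6 and 17 genes, and each was looked at over 6 time-points. Of the tests of all genes, 0.134% were called higher in Helq null over the 6 time-points, and 0.629% at E15.5. Bmp4, the BMP ligand that induces PGCs, was at 23.3 CPM in the Helq null pool of E11.5 against 3.56 and 0.929 CPM in wild type (3.43, adjusted p = 0.0174) and at 29 CPM against 4.4 and 3.08 CPM at E12.5 (2.99, adjusted p = 0.0382). Each of these rests on a single null pool, assumed to vary like the other groups, in libraries apart from wild type. At E15.5 Id1 was at 27.4 and 47.5 CPM against 9.01 and 7.78 CPM (2.23, adjusted p = 0.00905). Spry4, an inhibitor of FGF signalling, was at 13 and 17 CPM against 0.575 and 2.4 CPM (3.36, adjusted p = 0.0446). Over all time-points the list medians were 0.17 for upstream signals, -0.03 for early germ cell genes, 0.45 for genes known to be repressed downstream, 0.08 for the mesoderm programme, -0.03 for partners and 0.20 for paralogs, against 0.02 for all genes. The largest values were 1.48 for Bmp4 (adjusted p = 0.0793), 0.32 for Esrrb (0.807), 1.41 for Myc (0.12), 3.23 for Hand1 (0.421), 0.15 for Suz12 (0.865) and 1.16 for Tfap2e (0.849). The lowest were -0.84 for Bmp8b (adjusted p = 0.833), -0.39 for Dnd1 (0.118), -0.11 for Dnmt3a (0.874), -1.16 for Hoxb1 (0.731), -0.08 for Eed (0.807) and -2.91 for Tfap2d (0.435).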

How the data were processed

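Single cells were profiled by a modified STRT-seq, which counts the 3′ ends of transcripts with UMIs. The authors deposited raw UMI counts per gene and cell (unit counts, no normalisation). According to the submitters' processing notes and the methods, base calling used CASAVA 1.8, UMIs were handled with UMI-tools, reads were aligned with STAR to mm10, and genes were counted with featureCounts of Subread. The labels of the 147 libraries give only a code, so time-point, genotype, gate and replicate were read per cell from the deposited table of cells. The 2648 columns of cells of PND30 and later were not used. Cells with over 2000 genes and 10000 to 1000000 UMIs were kept, sums of at least 10 cells formed a pool, and no doublet caller was run, because cells were sorted or picked singly. No 2 cells shared both library and barcode.

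Pools were tested with edgeR 4.0.16 (TMM, quasi-likelihood, R 4.3.3), with Benjamini-Hochberg adjustment over all genes and a threshold of 0.05. DESeq2 1.42.0 served as an alternative, and limma 3.58.1 is used by edgeR. The fit was tested on simulated data. Depth per pool limits low values: CPM rests on 3 UMIs as the floor where a count was 0, and intervals are 95% exact and cover counting error only. For shares of cells, counts were thinned to 50000 UMIs, which left out 567 shallower cells. Same-numbered pools were not treated as pairs, since their deviations did not correlate throughout (r from -0.11 to 0.54 over 210 pairs of the time course). Named genes were the 3 members, the largest rise and fall of each list, and the 5 genes most like each member, of which some are not reported here. The members and the lists were chosen with earlier results of these data known.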

Additional observations from a re-analysis of the deposited data

Results flagged for a closer look

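At E7.5, the 4 FACSrandom pools held an extreme value for 2 of the genes. For Prdm14, replicate 4 stood apart from the others by a gap of 0.854 of the whole range of the group, and for Tfap2c by 0.885, both past Dixon's limit at the 95% level for groups of 4. Chance flags a small share of groups in this way. The same pool held 499.8 CPM of Dppa3, the highest of the E6.5 and E7.5 pools, and the part of its choice of cells was not tested.

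At E11.5, 32 cells sorted as BV form a pool that no comparison used. It held 103.9 CPM of Prdm1, 55.6 CPM of Prdm14 and 167 CPM of Tfap2c, above the Negative pools of the same time-point.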

How the results depend on the processing

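The gate differences of Prdm14 and Tfap2c were called in every alternative run. Leaving out replicates gave 4.78 to 5.88 and 4.61 to 5.77 on the log2 scale, and 7263 to 7291 genes called in place of 12851. In the steps of the time course DESeq2 called 1 test of the 3 genes in place of 0, and leaving out replicates gave 0. From E9.5 to E18.5, Prdm1 was not called with size factors (-1.34). Without replicates its values ran from -1.90 to -1.64, those of Prdm14 from -6.47 to -5.01 and those of Tfap2c from -5.49 to -5.05. From PND0 to PND14, Prdm1 was called with size factors (-2.02), with every gene that had a UMI (-1.55) and by DESeq2 (-2.02). Leaving out replicates gave -2.08 to -1.22 for Prdm1, -11.03 to -3.54 for Prdm14 and -1.33 to -0.46 for Tfap2c. The value of -11.03 is set against a PND14 pool without a UMI of Prdm14. The causes were not tested.

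For Helq, 330 genes were called with every gene that had a UMI, 531 by DESeq2 and 3 at E13.5 alone, in place of 154. Leaving out replicates gave 18 to 189. At E13.5 alone the values turned to -0.0139 for Prdm1, -0.18 for Prdm14 and -0.22 for Tfap2c. Over all time-points leaving out pools gave 0.30 to 0.56 for Prdm1, -0.34 to 0.66 for Prdm14 (-0.34 without replicate 1) and 0.24 to 0.52 for Tfap2c. At E15.5 DESeq2 called Prdm1 (1.14), and leaving out pools gave 0.75 to 1.63 for Prdm1, 1.09 to 3.13 for Prdm14 and 0.96 to 1.16 for Tfap2c. At E14.5 Prdm14 ran from -0.999 to 0.35, the latter without null replicate 2.

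At E14.5 the mean of CPM per cell was 51.6 for Prdm1, 26.2 for Prdm14 and 25.5 for Tfap2c. The share of cells with all 3 genes depended on depth. At E9.5 it was 52.4% with 3 UMIs of each, 94.7% at 100000 UMIs, 66% at 25000 and 95.2% unthinned, in place of 82.7%. At E14.5 it was 3.76%, 39.8%, 10.6% and 54.2%, in place of 23.1%. With a replicate block no call of the 3 genes changed in the time course, for example -1.88 for Prdm1 from E9.5 to E18.5, or in the Helq fit over all time-points. Between the gates the calls of Prdm14 and Tfap2c did not change. The block was not run at single time-points of the Helq and gate fits.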
